A study of Rattus norvegicus with 20 samples.

Results

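The Cyp3a genes encode cytochrome P450 enzymes of subfamily 3A, and 4 of them could be read in the livers of rats dosed with IDDP, isodecyl diphenyl phosphate, a phosphate ester added to plastics as softener and flame retardant. The members were Cyp3a23-3a1, Cyp3a2, Cyp3a9 and Cyp3a18, taken wherever the annotation of the array gave a probe set exactly 1 of these symbols. Each had exactly 1 such probe set, so the family stands for 4 of the 14217 genes named on the array: 1387118_at for Cyp3a23-3a1, 1370593_at for Cyp3a2, 1370387_at for Cyp3a9 and 1398307_at for Cyp3a18. The rats were male Harlan Sprague Dawley animals of unstated age that received 4 daily gavage doses, and liver from the left lobe was taken on day 5. The groups were 5 rats given the corn oil vehicle and 5 groups of 3 rats given IDDP, at 66, 132, 263.6, 527.1 or 1054.2 mg/kg (a span of 0.169 to 2.7 mmol/kg), all of them in corn oil. RNA from each rat was hybridised to 1 Affymetrix array, and values are log2 intensities. A log2 difference of 1 is a doubling of intensity, and intensities of different probe sets cannot be set against each other as amounts of RNA.

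CYP3A enzymes of the liver endoplasmic reticulum oxidise steroids, bile acids and a large share of drugs, taking electrons from the reductase encoded by Por. Their genes are classical targets of the pregnane X receptor (PXR, gene Nr1i2), which pairs with the retinoid X receptor and binds repeated 6-base sites in their promoters, and of its relative CAR (gene Nr1i3). In rats, Cyp3a23-3a1 is the form best known for induction by pregnane steroids and dexamethasone, Cyp3a2 and Cyp3a18 are male-predominant in adult liver, and Cyp3a9 is female-predominant.

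The promoters of the 4 members are shown because PXR is known to act through such regions and the members differed in their change. No binding was measured here. The sequences are RefSeq's for the rat assembly GRCr8, from 250 to 51 bases before each start, on the strand of the gene. They lie at chr12:14398854-14399053 (minus strand) for Cyp3a23-3a1, chr12:14343908-14344107 (minus) for Cyp3a2, chr12:21960211-21960410 (minus) for Cyp3a9 and chr12:13994062-13994261 (plus) for Cyp3a18. Capitals mark the hexamers AGGTCA and AGTTCA, on either strand, and a direct repeat of the hexamer TGAACT with 3 bases between the copies, TGAACT being AGTTCA read on the other strand.
Cyp3a23-3a1: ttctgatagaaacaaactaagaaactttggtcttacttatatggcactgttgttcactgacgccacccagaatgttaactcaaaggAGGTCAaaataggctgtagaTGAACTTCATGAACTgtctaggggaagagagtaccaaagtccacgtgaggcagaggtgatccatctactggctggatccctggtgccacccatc
Cyp3a2: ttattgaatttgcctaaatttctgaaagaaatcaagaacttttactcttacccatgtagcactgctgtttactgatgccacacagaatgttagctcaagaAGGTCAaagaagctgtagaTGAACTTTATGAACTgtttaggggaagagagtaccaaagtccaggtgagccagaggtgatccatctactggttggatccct
Cyp3a9: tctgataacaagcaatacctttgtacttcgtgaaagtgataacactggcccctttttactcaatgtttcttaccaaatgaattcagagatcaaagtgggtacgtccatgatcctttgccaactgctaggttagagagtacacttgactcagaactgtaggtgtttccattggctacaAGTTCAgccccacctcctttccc
Cyp3a18: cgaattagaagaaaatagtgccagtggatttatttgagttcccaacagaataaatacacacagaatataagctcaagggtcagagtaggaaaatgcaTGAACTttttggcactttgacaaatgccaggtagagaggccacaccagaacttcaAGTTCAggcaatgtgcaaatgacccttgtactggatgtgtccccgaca

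The direct repeat, searched on both strands, was found in the windows of Cyp3a23-3a1 (TGAACTTCATGAACT, bases -144 to -130) and Cyp3a2 (TGAACTTTATGAACT, bases -131 to -117). These were the only 2 among the 33469 promoter windows of this length, or 0.006%. The repeats differ by C8T, with the base of Cyp3a23-3a1 first and positions counted from 1 at the 5′ end of the repeat. The letters and spacing searched were picked from knowledge of the rat Cyp3a23 promoter, so the match in that gene is no independent result. Nor is the match in the adjacent Cyp3a2, whose window is 74.4% identical to it in aligned columns. The hexamer AGGTCA lay in 2 of the 4 windows, those of Cyp3a23-3a1 and Cyp3a2, against 11.2% of all windows. AGTTCA lay in all 4 windows, against 10.3%, and in Cyp3a23-3a1 and Cyp3a2 its matches are the copies within the repeat. An everted repeat, TGAACT followed after 6 bases by AGTTCA or AGGTCA, had an exact match in 0 of the 33469 windows. All motifs were searched letter for letter, so sites that differ by a base were not counted. The absence of an exact match therefore does not mean that a window lacks a site of that type. The log2 change at 1054.2 mg/kg against vehicle was 1.40 for Cyp3a23-3a1 and 0.21 for Cyp3a2, whose windows hold the direct repeat. It was 1.06 for Cyp3a18 and -0.51 for Cyp3a9, whose windows hold no exact match of the repeat. Whether the motifs bear on these changes was not tested. A global alignment of the windows gave 74.4% identical columns between Cyp3a23-3a1 and Cyp3a2 (160 of 215) and 51.3% to 56.4% for the other pairs. All 4 genes lie on chromosome 12, where Cyp3a2 and Cyp3a23-3a1 are adjacent in RefSeq. There are 6 annotated genes between Cyp3a18 and Cyp3a2, 3 of them named as Cyp3a genes or pseudogenes, and 176 between Cyp3a23-3a1 and Cyp3a9.

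The arrays agreed closely in their medians (6.31 to 6.41) and with each other (Pearson's r 0.978 to 0.996 across probe sets). The difference between the 3' and 5' ends of the control transcripts, larger where RNA is more degraded, was 1.55 to 1.75 at 1054.2 mg/kg and 1.24 to 1.89 in vehicle rats. It reached 3.25 on replicate 2 of 132 mg/kg and 2.47 on replicate 2 of 263.6 mg/kg. The 9 measured hepatocyte markers averaged 13.99 to 14.02 per rat at 1054.2 mg/kg and 13.98 to 14.09 in vehicle rats, and 0 of them passed in limma (1 was higher without 1054.2 mg/kg replicate 1 and under 3 other settings). Markers of other liver cells were lower in part at 1054.2 mg/kg, where 1.44% of all probe sets were lower and 1.86% higher. Of 5 Kupffer cell markers 4 fell (means of 9.76 to 9.77 per rat, against 10.14 to 10.60 in vehicle rats), as did 3 of 5 stellate markers (7.74 to 7.93 against 8.03 to 8.41) and 2 of 5 endothelial markers (9.33 to 9.59 against 9.67 to 10.05). Without 1054.2 mg/kg replicate 3 they were 0, 0 and 1, and without its replicate 2 they were 2, 1 and 0. Without its replicate 1 the Kupffer and stellate counts were both 2. The Kupffer count was also 2 without vehicle replicate 1 or 4, and the stellate count 2 without vehicle replicate 1, 2, 3 or 4. Among 5 markers of enterocytes, a cell type that also uses Cyp3a genes, Apoa4 fell. It averaged 12.08 over all arrays, while Vil1 averaged 5.32, below the array medians. Epcam rose among 4 cholangiocyte markers. Cela1 fell among 4 pancreas markers, and averaged 10.33 over all arrays against 4.65 for Prss1. Which cells gave the signal of Apoa4 and Cela1 was not tested. Of 2 erythroid markers 0 passed in limma (2 were lower without 1054.2 mg/kg replicate 1, and 1 under 2 other settings). The part of these shifts in the Cyp3a values was not tested, and in whole liver a smaller number of expressing cells and less RNA per cell cannot be told apart.

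Cyp3a23-3a1, the inducible form, rose at 132 mg/kg and above, and every treated rat lay above every vehicle rat. Its log2 levels in the vehicle rats were 13.27, 13.11, 13.04, 13.37 and 13.32. At 66 mg/kg they were 14.10, 13.88 and 13.69, and at 132 mg/kg 14.10, 13.92 and 14.26. The lowest of these 6 treated rats, 66 mg/kg replicate 3, lay above the highest vehicle rat. At 263.6 mg/kg the levels were 14.37, 14.38 and 14.53. They were 14.68, 14.46 and 14.41 at 527.1 mg/kg and 14.50, 14.65 and 14.72 at 1054.2 mg/kg. The groups at the 3 highest doses overlap each other, and all 15 treated rats lie above all 5 vehicle rats.

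**Figure D1:**
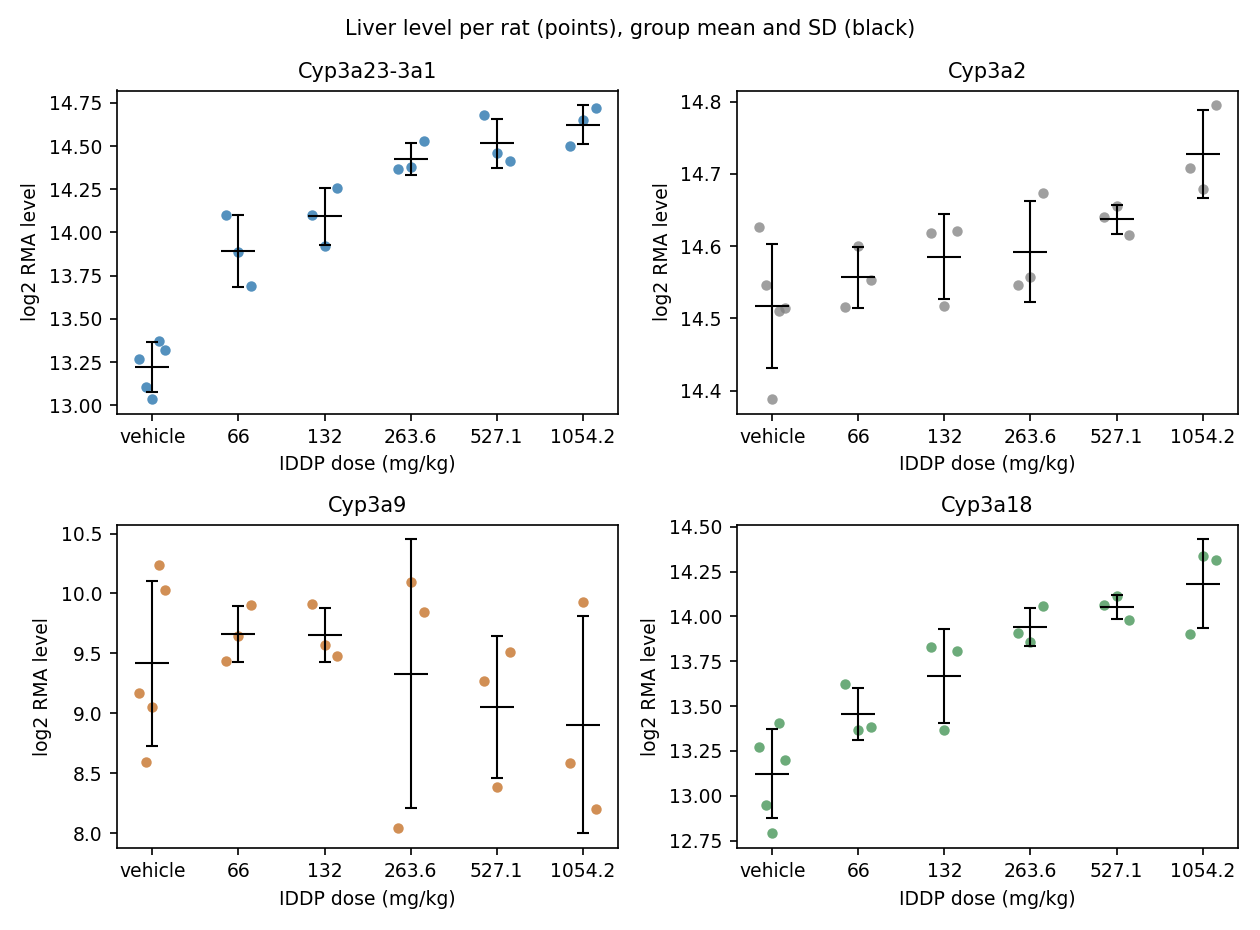
Log2 intensity of each Cyp3a member (vertical axis, with its own scale in each panel) in every rat by dose of IDDP in mg/kg (horizontal axis, equally spaced groups, with the vehicle at the left). Points are rats and bars are the group mean with its SD. For Cyp3a23-3a1 all treated rats lie above the vehicle rats, while for Cyp3a9 the groups overlap throughout.

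The group means of Cyp3a23-3a1 were 13.22 ± 0.14 in vehicle rats (SD, n = 5), then 13.89 ± 0.21, 14.09 ± 0.17, 14.42 ± 0.09, 14.52 ± 0.14 and 14.62 ± 0.11 with rising dose (SD, n = 3 each). Against vehicle, limma gave a change of 0.87 ± 0.11 (SE) at 132 mg/kg, or 1.83-fold, with an adjusted p of 0.00112. The change was 1.20 at 263.6 mg/kg (2.30-fold, adjusted p = 5.99e-06 in limma) and 1.29 at 527.1 mg/kg (2.45-fold, adjusted p = 1.36e-06 in limma). At 1054.2 mg/kg it was 1.40 (95% interval 1.17 to 1.63), or 2.64-fold, with a limma adjusted p of 2.36e-07. On the log2 scale, most of the difference from vehicle at the top dose was already present at 132 mg/kg. That was also the dose at which the threshold of 0.05 was first passed. The levels at 1054.2 mg/kg, 14.50 to 14.72, lie near the upper end of the scale, whose highest value on any array was 15.35. Whether this narrows the change at the higher doses was not tested.

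At 66 mg/kg Cyp3a23-3a1 had a change of 0.67 ± 0.11 (95% interval 0.44 to 0.90), or 1.59-fold, and an adjusted p of 0.0634 in limma, just short of the threshold. Its p was the third smallest of the 31042 probe sets at that dose. The adjusted p was 0.0428 without 66 mg/kg replicate 3 and reached 0.549 without another single rat. It fell below the threshold under 5 of the 9 other settings tried, with values of 0.00835 to 0.0484.

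Cyp3a18, a testosterone-hydroxylating form, followed Cyp3a23-3a1 with a smaller change. In the vehicle rats its log2 levels were 13.27, 12.95, 12.79, 13.41 and 13.20. Levels were 13.62, 13.36 and 13.39 at 66 mg/kg and 13.83, 13.37 and 13.81 at 132 mg/kg. At these doses 1 and 2 of the 3 rats lay above all vehicle rats, so the groups overlap. Levels of 13.91, 13.86 and 14.06 at 263.6 mg/kg, of 14.07, 14.11 and 13.98 at 527.1 mg/kg and of 13.90, 14.34 and 14.31 at 1054.2 mg/kg were all above the vehicle range. The group means were 13.12 ± 0.25 in vehicle rats (SD, n = 5) and 13.46 ± 0.14, 13.67 ± 0.26, 13.94 ± 0.11, 14.05 ± 0.07 and 14.18 ± 0.25 with rising dose (SD, n = 3 each).

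The changes of Cyp3a18 were 0.33 ± 0.14 (SE) at 66 mg/kg and 0.54 (adjusted p = 0.123 in limma) at 132 mg/kg, neither past the threshold. It rose by 0.82, or 1.76-fold, at 263.6 mg/kg (adjusted p = 0.00972 in limma) and by 0.93, or 1.90-fold, at 527.1 mg/kg (adjusted p = 0.00158 in limma). At 1054.2 mg/kg the rise was 1.06 (95% interval 0.77 to 1.35), or 2.08-fold, with a limma adjusted p of 1.43e-04. The dose at which it first passed was thus 1 step higher than for Cyp3a23-3a1, although whether the dose of first change differs was not tested.

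Cyp3a2, the main constitutive form of the male liver, varied little at any dose. Its log2 levels were 14.63, 14.55, 14.39, 14.51 and 14.51 in vehicle rats. At 66 mg/kg they were 14.52, 14.60 and 14.55, at 132 mg/kg 14.62, 14.52 and 14.62, and at 263.6 mg/kg 14.55, 14.56 and 14.67. At 527.1 mg/kg they were 14.64, 14.66 and 14.61, and at 1054.2 mg/kg 14.71, 14.68 and 14.80. The number of rats above all vehicle rats was 0, 0, 1, 2 and 3 of 3 with rising dose. The change at 1054.2 mg/kg was 0.21 ± 0.07 (SE; 95% interval 0.06 to 0.36) and did not pass (adjusted p = 0.139 in limma), and those at the lower doses were 0.04, 0.07, 0.08 and 0.12. The probe set lies near the upper end of the scale, whose highest value on any array was 15.35. Its SD within groups, 0.06, was larger than that of only 0.451% of probe sets.

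Cyp3a9 showed the widest scatter of the 4 and no change that passed. Its log2 levels were 9.17, 8.59, 9.06, 10.24 and 10.03 in the vehicle rats, a range of 1.64. At 66 mg/kg they were 9.44, 9.64 and 9.90, at 132 mg/kg 9.91, 9.57 and 9.48, and at 263.6 mg/kg 8.04, 10.10 and 9.85. At 527.1 mg/kg they were 9.27, 8.38 and 9.51, and at 1054.2 mg/kg 8.58, 9.93 and 8.20. The groups overlap at every dose, though 2 of the 3 rats at 1054.2 mg/kg lay below all vehicle rats. The change at 1054.2 mg/kg was -0.51 ± 0.44 (SE; 95% interval -1.43 to 0.41; adjusted p = 0.665 in limma), an interval that holds both a large fall and a modest rise. It was -1.02 without 1054.2 mg/kg replicate 2, -0.16 without its replicate 3 and -0.03 with the replicate number as a block. Numbers 4 and 5 occur only in vehicle rats, so the block leaves vehicle replicates 1 to 3 in the comparison. In the main fit the change at the lower doses was 0.25, 0.24, -0.09 and -0.36. The SD within groups was 0.71, larger than that of 99.8% of probe sets.

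**Figure D2:**
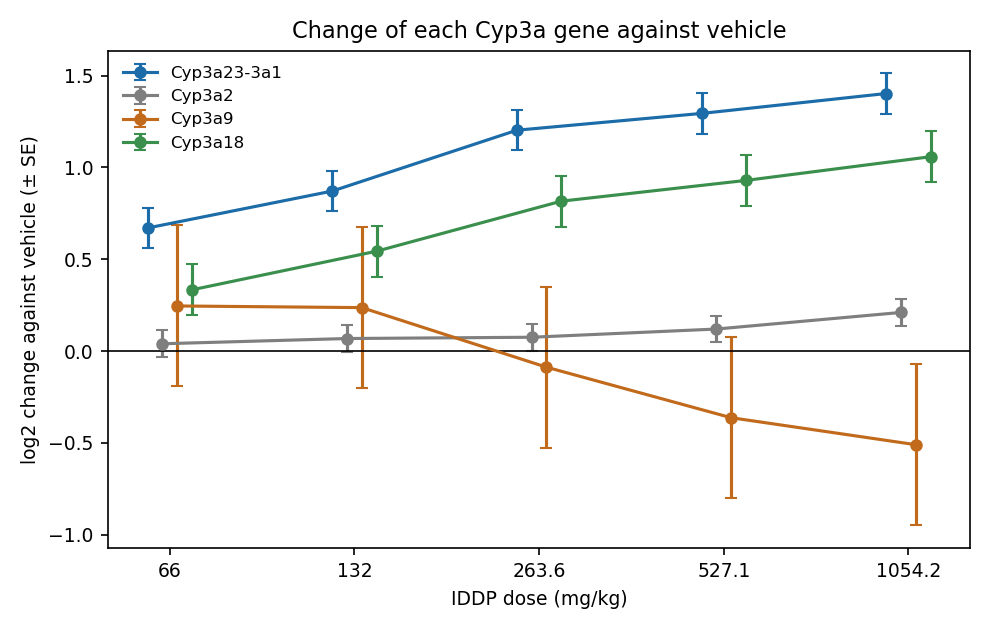
Log2 change against vehicle (vertical axis) of the 4 Cyp3a members at each dose of IDDP in mg/kg (horizontal axis, equally spaced), from the limma fit, with bars of 1 SE to either side. The changes of Cyp3a23-3a1 and Cyp3a18 grow from 0.67 and 0.33 at 66 mg/kg to 1.40 and 1.06 at 1054.2 mg/kg, while those of Cyp3a2 stay at 0.21 or less and those of Cyp3a9 lie between 0.25 and -0.51 with the widest bars.

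By dose, 0 of the 4 members passed in limma at 66 mg/kg (2 at an unadjusted p under 0.05, against 3.24% of all probe sets), where 0.00644% of all probe sets were higher. At 132 mg/kg 1 was higher (0.0354% of all probe sets), at 263.6 mg/kg 2 (0.274%), at 527.1 mg/kg 2 (1.19%) and at 1054.2 mg/kg 2 (1.86%). The count of lower members was 0 at every dose, where 0%, 0.0322%, 0.155%, 0.483% and 1.44% of all probe sets were lower. Groups that did not overlap, with the treated rats higher, were found for 1 member at 66 mg/kg (2.68% of all probe sets), 1 at 132 mg/kg (4.32%), 2 at 263.6 mg/kg (4.82%), 2 at 527.1 mg/kg (7.04%) and 3 at 1054.2 mg/kg (6.6%). On the rank of the dose, from 0 for vehicle to 5, Cyp3a23-3a1 rose by 0.28 ± 0.03 per rank (adjusted p = 2.71e-07 in limma) and Cyp3a18 by 0.22 ± 0.02 (adjusted p = 3.05e-06 in limma). That made 2 of the 4 members higher with dose, against 2.97% of all probe sets. The slope of Cyp3a2 was 0.04 ± 0.01 and did not pass (adjusted p = 0.0680 in limma), but it passed under 6 of the other settings tried. For Cyp3a9 the slope was -0.12 ± 0.07 (adjusted p = 0.462 in limma).

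No member passed between neighbouring doses. For 1054.2 against 527.1 mg/kg 0 of the 4 passed in limma (0 also at an unadjusted p under 0.05), against 0.0129% of all probe sets in either direction. For 132 against 66, 263.6 against 132 and 527.1 against 263.6 mg/kg 0 probe sets of the whole array (0%) passed in limma, with 1204, 2890 and 1809 at an unadjusted p under 0.05, which held 0, 1 and 0 of the members. That 1 was Cyp3a23-3a1, with a change of 0.33 ± 0.12 for 263.6 against 132 mg/kg (adjusted p = 0.483 in limma).

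Differences between dose group means made up 94.8% of the variance of Cyp3a23-3a1 over the 20 arrays, 84.1% of that of Cyp3a18, 61.6% of that of Cyp3a2 and 17.1% of that of Cyp3a9. These shares are not adjusted for the number of groups, and scatter between rats alone gives some share, so the smallest shows no dose effect. Cyp3a23-3a1 and Cyp3a18 went together also among rats of the same dose. Pearson's r between them was 0.96 over the 20 arrays and 0.81 after each group's mean was removed. For Cyp3a2 the corresponding values were 0.72 and 0.42 with Cyp3a23-3a1, and 0.78 and 0.52 with Cyp3a18. Cyp3a9 had r of -0.18 and 0.24 with Cyp3a23-3a1, -0.14 and 0.31 with Cyp3a18, and -0.28 and -0.05 with Cyp3a2. These are descriptions over arrays that share the dose, the RNA and the normalisation, and signal of 1 member on the probes of a near-identical other was not tested.

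**Figure D3:**
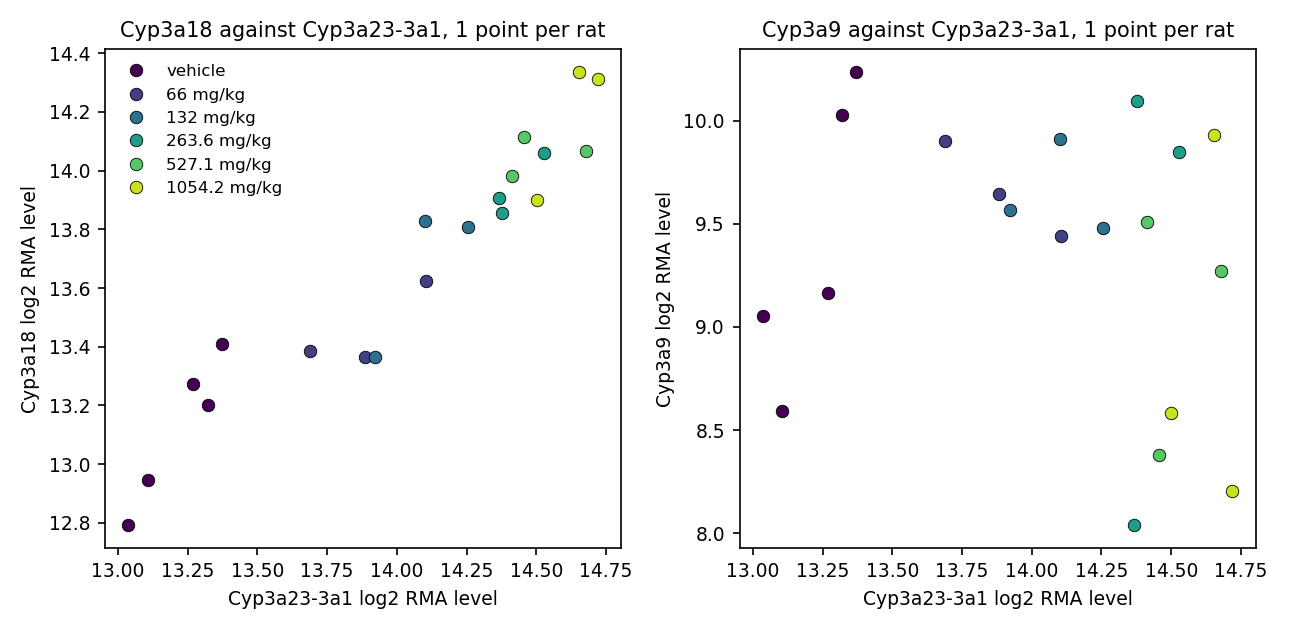
Log2 intensity of Cyp3a18 (left panel) and Cyp3a9 (right panel) on the vertical axes against that of Cyp3a23-3a1 (horizontal axis) in each of the 20 rats, coloured by dose of IDDP in mg/kg. The points of Cyp3a18 climb with Cyp3a23-3a1 (r 0.96), and those of Cyp3a9 are scattered (r -0.18).

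Whether members differed in their change was tested from the difference of 2 members within each array at 1054.2 mg/kg against vehicle, over 6 pairs with adjustment over them. The change of Cyp3a23-3a1 exceeded that of Cyp3a2 by 1.19 ± 0.08 (SE). Its level minus that of Cyp3a2 was -0.21 to -0.03 in the 3 rats at 1054.2 mg/kg and -1.44 to -1.14 in the 5 vehicle rats. It exceeded that of Cyp3a18 by 0.34 ± 0.10, with differences of 0.32 to 0.60 at 1054.2 mg/kg and -0.04 to 0.24 in vehicle rats. It also exceeded that of Cyp3a9, by 1.91 ± 0.59. The change of Cyp3a2 was below that of Cyp3a18 (-0.85 ± 0.17), and so was that of Cyp3a9 (-1.57 ± 0.55). In each of these 5 pairs the 3 treated rats lay outside the vehicle range on 1 side, which gives the smallest p the design allows (exact two-sided permutation p = 0.0179, adjusted 0.0214). The levels of Cyp3a2 lie near the upper end of the scale, and whether this narrows its change, and so widens its differences from Cyp3a23-3a1 and Cyp3a18, was not tested. Those of Cyp3a23-3a1 at 1054.2 mg/kg lie there too (14.50 to 14.72), and a narrowing of its change was not tested either. Cyp3a2 and Cyp3a9 were not told apart (0.72 ± 0.64, exact permutation p = 0.268, adjusted 0.268). With 1 treated rat left out the smallest p is 0.0476 and none of the 5 passes after adjustment (0.0571 to 0.114). The difference between Cyp3a23-3a1 and Cyp3a18 was also lost without vehicle replicate 2 or 5, and that between Cyp3a9 and Cyp3a18 without vehicle replicate 1 (adjusted permutation p = 0.0686 in each).

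Many other genes known as targets of PXR and CAR rose as well. The list was chosen with earlier results of these data known, so its counts are a description and no independent result. Of 23 on the list 17 were measured, and 1, 5, 6, 9 and 11 of them were higher from 66 to 1054.2 mg/kg. The shares of all probe sets that were higher were 0.00644%, 0.0354%, 0.274%, 1.19% and 1.86%. On the list 0 were lower at any dose, and 12 were higher in the trend (2.97% of all probe sets). The median change of the 17 was 0.26, 0.21, 0.32, 0.49 and 0.58 with rising dose, while the median over all probe sets lay between -0.02 and 0.01. The count at 66 mg/kg was 4 in a fit of the compared groups alone. The count at 132 mg/kg was 3 without vehicle replicate 1 or without 132 mg/kg replicate 1. Without replicate 2 of 132 and of 263.6 mg/kg, the arrays with the largest 3' minus 5' difference, the 5 counts were 1, 5, 7, 10 and 11. Gsta3, a glutathione transferase, was the 1 that passed at 66 mg/kg (1.31 ± 0.17, adjusted p = 0.00418 in limma; 0.110 without 66 mg/kg replicate 1), and its change was 2.96 at 1054.2 mg/kg. Ces2c, a carboxylesterase, had changes of 0.72, 1.60, 2.42, 2.56 and 3.60 with rising dose, the last 4 past the threshold. The efflux transporter gene Abcc3 was likewise higher from 132 mg/kg on (1.72, 2.36, 2.66 and 3.42 ± 0.28). The retinal dehydrogenase gene Aldh1a1 had changes of 0.62, 1.04, 1.04 and 1.36 ± 0.10 over the same doses, all past the threshold. Akr7a3, an aldehyde reductase, was higher from 263.6 mg/kg (1.73, 1.82 and 1.91 ± 0.23), and the efflux pump gene Abcb1a from 527.1 mg/kg (0.87 and 1.60 ± 0.13). At 1054.2 mg/kg Cyp2b3, Cyp2c7, Sult2a1, Gstm1, Gstm2 and Gadd45b did not pass. Cyp2b1, Cyp2b2, Abcb1b, Ugt1a1, Gsta2 and Aldh1a7 were not measured, having no probe set with that symbol alone. Which receptor or other regulator acted on the genes of the list was not tested.

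The receptors' own transcripts did not pass at any dose. At 1054.2 mg/kg Nr1i2 had a change of -0.20 ± 0.10 (adjusted p = 0.350 in limma), Nr1i3 of 0.39 ± 0.28 (0.584) and Rxra, the partner of both, of 0.05 ± 0.11 (0.894). Among 14 measured genes of the list of receptors, partners and coregulators 0 passed in limma at each of the lower doses (3, 3, 4 and 3 at an unadjusted p under 0.05, against 3.24%, 14.9%, 11.9% and 13.6% of all probe sets). At 1054.2 mg/kg Foxa2 was higher (1.02 ± 0.22, adjusted p = 0.0121 in limma) and Foxa3 lower (-1.27 ± 0.21, adjusted p = 0.00152 in limma). Both encode forkhead factors of hepatocytes. Of the 14 genes 1 was thus higher and 1 lower, against 1.86% and 1.44% of all probe sets. An unadjusted p under 0.05 was found for 4 of them at this dose, against 15.1% of all probe sets. The median change of this list was 0.08. Foxa2 did not pass without 1054.2 mg/kg replicate 2 (0.111) or 3 (0.0864), nor with the replicate number as a block (0.0782).

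Of 13 measured genes for electron donors and haem supply, 0 passed in limma at each dose below 1054.2 mg/kg (0, 2, 3 and 2 at an unadjusted p under 0.05, beside the same shares of all probe sets). At 1054.2 mg/kg 2 were higher and 0 lower, against 1.86% and 1.44% of all probe sets, with a median change of 0.11. An unadjusted p under 0.05 was found there for 7 of the 13, against 15.1% of all probe sets. The 2 that passed were Hmox1, which breaks haem down (1.30 ± 0.23, adjusted p = 0.00302 in limma), and Alas1, the first and rate-limiting step of haem synthesis (1.07 ± 0.21, adjusted p = 0.00607 in limma; 0.0721 without 1054.2 mg/kg replicate 3). Por, the reductase that feeds electrons to all microsomal P450 enzymes, changed by 0.77 ± 0.26, short of the threshold (adjusted p = 0.128 in limma).

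Among 12 measured sex-dependent liver P450 genes and their regulators, 0 passed in limma at each dose below 1054.2 mg/kg (0, 2, 4 and 3 at an unadjusted p under 0.05, beside the same shares). At 1054.2 mg/kg 1 was higher and 2 were lower, with a median change of -0.09, while 1.86% of all probe sets were higher and 1.44% lower. Cyp2c11, the male-specific testosterone hydroxylase of rat liver, had changes of -0.16, -0.26, -0.24 and -0.30 at the lower doses and fell by 0.83 at 1054.2 mg/kg (-0.83 ± 0.10, adjusted p = 6.25e-05 in limma). At that dose the male-predominant Cyp3a18 was higher, the male-predominant Cyp3a2 did not pass and Cyp2c11 was lower. The other measured P450 genes of the list did not pass there: Cyp2c13 (-0.01), Cyp2a2 (0.12), Cyp2c12 (0.07), Cyp2a1 (-0.10) and Cyp2c7 (-0.07). Nor did Ghr, Stat5b, Onecut1 and Bcl6. Cux2, a female-predominant repressor, was higher (0.90 ± 0.20, adjusted p = 0.0170 in limma), from a dim probe set (6.11 at 1054.2 mg/kg and 5.22 in vehicle rats). Its change was 0.53 without 1054.2 mg/kg replicate 1 and did not pass there (0.0849) or with the replicate block (0.0752). Igf1, a growth hormone target, was lower (-0.30 ± 0.08, adjusted p = 0.0466 in limma), a call lost in 10 of 17 other settings, among them the removal of any 1 treated rat or of vehicle replicate 1, 2, 3 or 4 (up to 0.268).

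**Figure D4:**
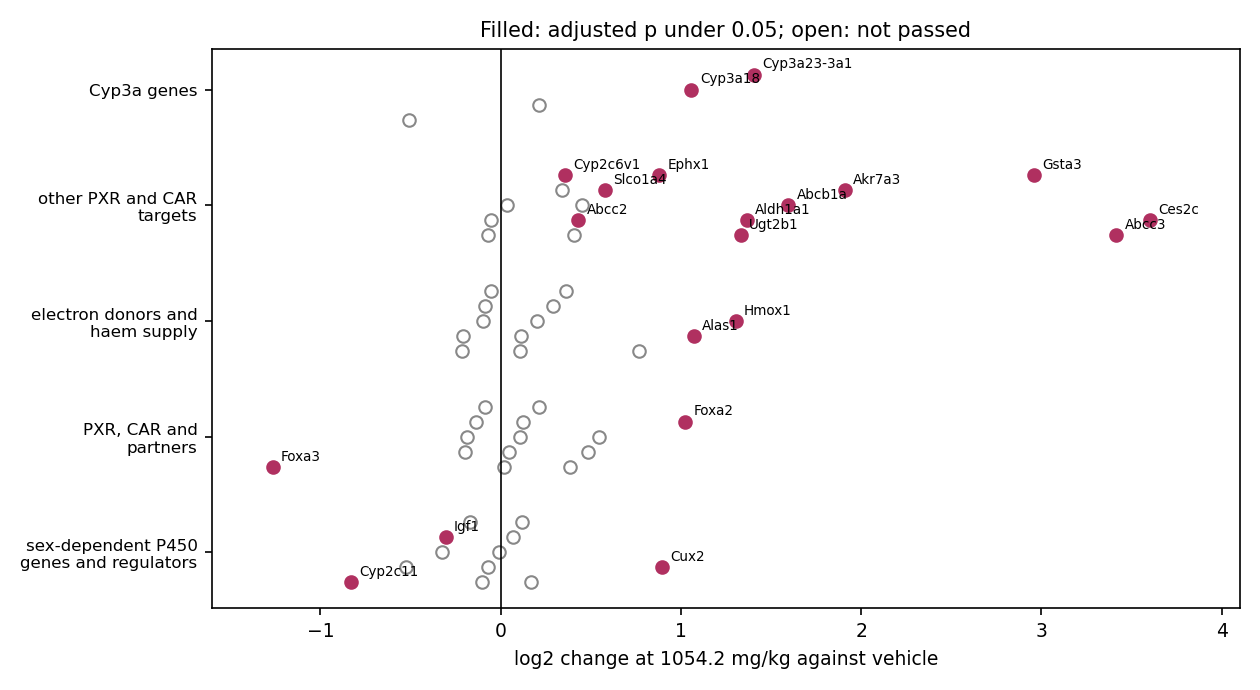
Log2 change at 1054.2 mg/kg IDDP against vehicle (horizontal axis) of the genes of 4 lists and of the Cyp3a members (rows). Filled points passed limma's adjusted threshold of 0.05 and open points did not. The targets of PXR and CAR reach 3.60 (Ces2c), above the 1.40 of Cyp3a23-3a1, and the other lists hold few filled points.

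The genes most like each member over the 20 arrays were taken by Pearson's r among 13979 genes with 1 symbol, leaving out the members and symbols starting with LOC or RGD. Each gene was read from whichever of its probe sets gave the most extreme r. For Cyp3a23-3a1 they were Gsta3 (0.96), Aldh1a1 and the glucuronosyltransferase gene Ugt2b1 (0.95 each), Abcc3 and Akr7a3 (0.93 each). The lowest r were those of the taurine transporter gene Slc6a6 (-0.95), Lsm11 (-0.92) and Rab31 (-0.89). Cyp3a18 was closest to the aldehyde oxidase gene Aox1 (0.93), Zdhhc2 and Ces2c (0.92 each), Aldh1a1 and Abcc3 (0.91 each), and lowest with Slc6a6 (-0.91, from another probe set of that gene), the lipid droplet gene Plin2 (-0.90) and Lsm11 (-0.88). Aldh1a1 and Abcc3 are in the nearest 5 of both.

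For Cyp3a2 the highest values were lower, in Decr1 of fatty acid oxidation and the proteasome activator gene Psme1 (0.85 each), Aox1 and Lyplal1 (0.83 each) and the glutathione transferase gene Gsta1 (0.82), and the lowest r were in Pim2 (-0.88), Atrn (-0.87) and Coro1c (-0.86). Cyp3a9 had none above 0.76, the value of the T cell costimulator gene Icos, followed by Atosa and Ahi1 (0.75 each), Mtmr12 (0.73) and Wdpcp (0.71). Its lowest were Pde1c (-0.81), Gng7 and Rbp2 (-0.79 each). Of these genes Icos, Ahi1, Pde1c and Rbp2 were dim, with vehicle means of 5.60, 5.72, 5.14 and 5.00, below the array medians. These r are over arrays that share the doses, and the highest of 13979.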

How the data were processed

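The authors deposited 1 table of log2 intensities per probe set for the 20 arrays, made with RMA according to the submitters' processing notes, and the sources used here give neither its version nor whether all arrays were run together. Groups came from the dose in the labels. The 57 array control probe sets were left out and 31042 were tested, of which 20826 carried 1 symbol in the annotation of the array. In limma 3.58.1 (R 4.3.3) all 20 arrays entered 1 fit with a mean for each dose group and empirical Bayes moderation (residual degrees of freedom 14, prior 5.75). Tests were two-sided, with Benjamini and Hochberg adjustment over all tested probe sets and a threshold of 0.05. The fit was tested on simulated data. The members, lists, motifs and rules were chosen with earlier results of these data known. Each list gene was read from its brightest probe set. Named were all members, the 5 genes of highest and 3 of lowest r with each member, up to 6 genes per list past the threshold at 1054.2 mg/kg, and Nr1i2, Nr1i3, Rxra, Por and Alas1 whether or not they passed. The markers Apoa4, Vil1, Epcam and Cela1 and the values at lower doses were named after they were seen. So were the targets of PXR and CAR that were not measured or did not pass, and the genes of the sex-dependent list that did not pass. Alternatives were the replicate block, the compared groups alone, medians centred, quantile normalization again, dim probe sets left out, 1 probe set per gene, eBayes with trend and robust variance, RNA quality as a covariate, the trend on dose in mg/kg, and each rat left out. Promoters were aligned with Biopython 1.88. P-values measure spread between rats, and the number of arrays limits the precision. Replicate numbers were not taken to pair rats (see the closing part on processing). Numbers 4 and 5 occur only in vehicle rats, so the replicate block in effect leaves those rats out for every gene.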

Additional observations from a re-analysis of the deposited data

How the results depend on the processing

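The counts of members past the threshold at 132, 263.6, 527.1 and 1054.2 mg/kg (1, 2, 2 and 2) and between 1054.2 and 527.1 mg/kg (0) were the same under all 9 other settings and with each rat left out. At 66 mg/kg the count of 0 became 1, Cyp3a23-3a1, with medians centred (adjusted p = 0.0484 in limma), dim probe sets left out (0.0449), 1 probe set per gene (0.0288), eBayes with trend and robust variance (0.00835) and RNA quality as a covariate (0.0209), and lay between 0 and 1 with 1 rat left out. The trend of Cyp3a2 passed with slopes of 0.0388 (medians centred), 0.0396 (quantile normalization again), 0.0366 (dim probe sets left out, 1 probe set per gene, and eBayes with trend and robust variance) and 0.0369 (RNA quality covariate). With 1 rat left out it did not pass (0.0314 to 0.0412). The pair differences, with 1 rat left out, ran from 1.15 to 1.25 (Cyp3a23-3a1 minus Cyp3a2), 1.52 to 2.41 (minus Cyp3a9) and 0.26 to 0.41 (minus Cyp3a18). For Cyp3a2 minus Cyp3a18 they ran from -0.98 to -0.75, and for Cyp3a9 minus Cyp3a18 from -2.004 to -1.15. The change of Cyp3a9 turned positive with the replicate block at 263.6 mg/kg (0.39) and 527.1 mg/kg (0.11). Numbers 4 and 5 occur only in vehicle rats, so the block sets treated rats against vehicle replicates 1 to 3 only. Vehicle replicates 4 and 5 had the highest Cyp3a9 levels of the vehicle rats, 10.24 and 10.03. With 1 rat left out the change of Cyp3a9 ran from -0.47 to 0.56 at 263.6 mg/kg and from -0.66 to 0.20 for 1054.2 against 527.1 mg/kg. Why single rats moved it so far was not tested.

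Same-numbered rats showed little tendency to deviate together. Over 45 pairs r ran from -0.35 to 0.47 with a median of 0.07, and 15 were over 0.1. Over 90 pairs of different number r ran from -0.59 to 0.38 with a median of -0.02, and 25 were over 0.1. Of 18 arrays, 7 correlated best with an array of their own number. Whether the numbers mark a batch was not tested further. The replicate block, which leaves vehicle replicates 4 and 5 out of the comparisons, changed no call among the Cyp3a members (Cyp3a23-3a1 1.49 and Cyp3a18 1.18 at 1054.2 mg/kg). Leaving out 132 and 263.6 mg/kg replicate 2 together was chosen after seeing the values and changed no call among the members. Other probe sets of a member were not run, since each has 1. Near-identical Cyp3a copies may share probes, and probe sequences were not used here.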
